A study of Mus musculus with 6 samples.

Results

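The Pbx, Meis and Pknox genes encode homeodomain proteins that bind DNA together with Hox proteins. The 8 genes Pbx2, Pbx3, Pbx4, Meis1, Meis2, Meis3, Pknox1 and Pknox2 were taken by name from the 49568 gene names measured in neurons of the preBötzinger Complex (preBötC), the brainstem site where the inspiratory rhythm of breathing originates. They comprised 3 Pbx, 3 Meis and 2 Pknox genes, and other genes of these families are not analysed here. RNA was sequenced from 3 samples of Dbx1 neurons and 3 samples of non-Dbx1 neurons. Each sample held 15 neurons drawn by micropipette from the medullary slice of a different mouse at postnatal day 2, so 6 mice were used. All 6 mice carried the same alleles, Dbx1CreERT2 and Rosa26tdTomato, and their dams had received tamoxifen, which activates the Cre recombinase. Dbx1 neurons were identified by tdTomato fluorescence, which marks cells derived from progenitors that expressed the Dbx1 transcription factor. Non-Dbx1 neurons were neuronal somata of the preBötC without this fluorescence, so the group was set by the absence of a label. It may hold several lineages, and a neuron of the Dbx1 lineage in which Cre did not act would carry no label either. Dbx1 itself had 0 reads in all 6 samples, and its own transcript therefore gives no check of the labels.

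Hox genes give the neurons of the hindbrain and spinal cord their position along the head-to-tail axis, but Hox proteins alone bind DNA with little selectivity. Pbx proteins bind next to Hox proteins and sharpen that selectivity, and Meis and Pknox proteins (the latter also called Prep) bind Pbx proteins through their amino-terminal part, keep them in the nucleus and help to recruit coactivators. All 3 families belong to the TALE class, named for an extension of the loop between the first and second helix of the homeodomain by 3 amino acids.

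The stretch of coding sequence around that loop is shown for all 8 genes, since it is the feature that defines the class. Each run holds 45 bases, 5′ to 3′ on the coding strand, from GENCODE vM21 transcripts on the GRCm38 build of the mouse genome, and the 9 capitals code for the proline, tyrosine and proline of the loop.
Pbx2: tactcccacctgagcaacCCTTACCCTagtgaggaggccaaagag
Pbx3: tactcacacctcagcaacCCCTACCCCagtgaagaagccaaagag
Pbx4: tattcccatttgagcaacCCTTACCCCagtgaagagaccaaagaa
Meis1: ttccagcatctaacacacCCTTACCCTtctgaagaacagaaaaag
Meis2: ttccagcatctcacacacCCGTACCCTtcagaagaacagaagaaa
Meis3: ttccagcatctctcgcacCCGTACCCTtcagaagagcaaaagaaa
Pknox1: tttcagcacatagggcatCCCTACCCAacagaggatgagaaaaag
Pknox2: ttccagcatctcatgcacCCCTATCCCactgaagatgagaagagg

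The stretch lay in exon 5 of all 3 Pbx genes, at chr17:34594637-34594681 on the + strand for Pbx2, chr2:34204816-34204860 on the - strand for Pbx3 and chr8:69866523-69866567 on the + strand for Pbx4. In the 5 Meis and Pknox genes an intron fell after base 15 of the stretch, between exon 8 and the next exon. The spans with that intron were chr11:18905736-18941673 on the - strand for Meis1, chr2:115921719-116000145 on the - strand for Meis2 and chr7:16182454-16183820 on the + strand for Meis3. Those of the Pknox genes were chr17:31599629-31602815 on the + strand for Pknox1 and chr9:36895358-36909643 on the - strand for Pknox2. Pbx2 and Pbx3 shared 39 of the 45 bases, Meis2 and Meis3 shared 41, and Pknox1 and Pknox2 shared 32. A Pbx gene and a Meis gene shared from 24 to 28 bases, fewer than any pair within a family. Pknox2, however, shared 34 bases with Meis1, 34 with Meis2 and 33 with Meis3, more than the 32 it shared with Pknox1. Over whole transcripts, no run of 50 bases of any of the 8 genes occurred in another of the 8, so reads of that length without errors could not have been exchanged among them. Pbx3, Pbx4, Meis3 and Pknox2 shared no such run with any other gene, whereas 17% of the runs of Meis1 and 4.93% of those of Pbx2 were found in other genes.

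The reads assigned to genes, recovered from the deposited values, ranged from 6464675 to 9432958 per sample. Values are RPKM, in which the authors divided the reads on a gene by its exon length and by the reads of the sample. All 8 genes had reads in all 6 samples, between 50 (Pbx2) and 4170 (Meis2) reads per sample, so none was near the floor of 3 reads. The 6 neuron markers summed to between 994 and 1708 RPKM in Dbx1 samples and between 993 and 1380 RPKM in non-Dbx1 samples. Markers of other cells were not spread evenly: Mbp, a myelin gene of oligodendrocytes, lay between 1.35 and 3.45 RPKM in Dbx1 samples and between 4.52 and 155 RPKM in non-Dbx1 samples, while Mog, Mag, Olig2 and Pdgfra, of the same lineage, overlapped between the groups. The 5 erythroid markers summed to between 90.3 and 507 RPKM in Dbx1 samples and between 733 and 14058 RPKM in non-Dbx1 samples. The 6 astrocyte markers summed to between 24.5 and 37.0 and between 32.9 and 44.9 RPKM, and the 6 endothelial and pericyte markers to between 0.120 and 0.595 and between 1.0 and 71.6 RPKM, in Dbx1 and non-Dbx1 samples, respectively. The 6 microglial markers summed to at most 2.97 RPKM, with Itgam and Tmem119 at 0 in all samples. The 5 motor neuron markers summed to at most 8.58 RPKM in Dbx1 and 62.3 RPKM in non-Dbx1 samples. In non-Dbx1 replicate 3, Slc18a3 had 37.0 RPKM and Isl1 had 13.3 RPKM, the latter from 1 read. In pools of neurons, fewer cells that express a gene and less RNA of it per cell cannot be told apart.

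The 8 genes spanned a wide range of levels. Averaged over the 6 samples, Pbx3 had 29.9 RPKM, Meis2 20.6, Meis3 19.9, Meis1 5.34, Pbx4 5.14, Pknox1 3.29, Pbx2 2.74 and Pknox2 1.12 RPKM. Pbx3, Meis2 and Meis3 formed an upper group, and in 6 of 6 samples each of them lay above every one of the other 5 genes, by at least 1.25-fold. Pbx3 ranked 1761 by mean RPKM among all gene names, higher than 93.5% of those with reads.

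**Figure D1:**
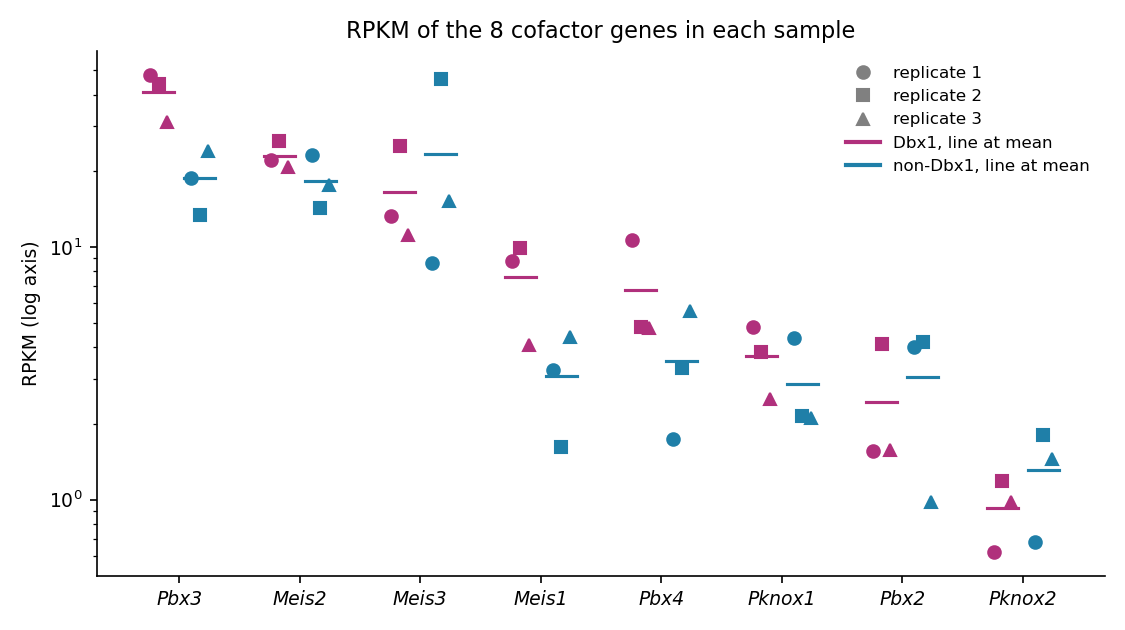
RPKM of each cofactor gene (log axis) in the 3 Dbx1 and 3 non-Dbx1 samples; symbols mark the replicate and lines the group means. The Dbx1 and non-Dbx1 samples are separate for Pbx3 alone, and the Meis3 value of non-Dbx1 replicate 2 lies far above the others.

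Neighbours in this order were compared within samples on log2(RPKM + 1) by an exact two-sided sign-change permutation test, adjusted by Benjamini-Hochberg over the 7 pairs; the smallest p that 6 samples allow is 0.031. Meis3 lay above Meis1 in 6 of 6 samples, by 1.67 on the log2 scale (exact p = 0.031, adjusted p = 0.22). Pbx2 lay above Pknox2 in 5 of 6 samples, by 0.74 (exact p = 0.062, adjusted p = 0.22). Pbx3 lay above Meis2 in 4 of 6 samples, by 0.41 (exact p = 0.12, adjusted p = 0.29). For the other pairs, Meis2 with Meis3, Meis1 with Pbx4, Pbx4 with Pknox1 and Pknox1 with Pbx2, the mean differences were between 0.02 and 0.43. That of Meis1 and Pbx4, the smallest, was -0.16 without Dbx1 replicate 2 and -0.11 when non-Dbx1 replicate 1 was left out. None of the 7 pairs passed an adjusted p of 0.05, which could be reached only if at least 5 of them had the smallest possible p, so the adjusted test could not have separated a single pair such as Meis3 and Meis1.

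The order between genes also rests on the exon length by which reads were divided. The lengths behind the deposited values exceeded the merged exon length of GENCODE vM21, in which each base is counted once, by between 1.49 (Pbx2) and 2.39 times (Meis1). Per merged exon length, the means over 6 samples were 50 on the RPKM scale for Pbx3, 40.3 for Meis3, 36.1 for Meis2, 12.8 for Meis1, 12.1 for Pbx4, 5.55 for Pknox1, 4.08 for Pbx2 and 1.75 for Pknox2. The means of Meis2 and Meis3 thus exchanged places, through non-Dbx1 replicate 2 (93.7 for Meis3); without it they were 38.4 for Meis2 and 29.6 for Meis3, and Meis3 lay above Meis2 in 2 of 6 samples (mean difference -0.06 on the log2 scale). As deposited, the means of these genes also exchanged places when Dbx1 replicate 1 (20.3 for Meis2, 21.2 for Meis3), Dbx1 replicate 3 (20.6 and 21.7) or non-Dbx1 replicate 1 (20.1 and 22.2) was left out. Per merged exon length too, Pbx3, Meis2 and Meis3 remained above the other 5 genes in 6 of 6 samples, by at least 1.07-fold. The ratio of the RPKM of 1 gene between samples does not depend on this length. Differences on log2(RPKM + 1) do depend on it through the added 1, more so for genes of low level.

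**Figure D2:**
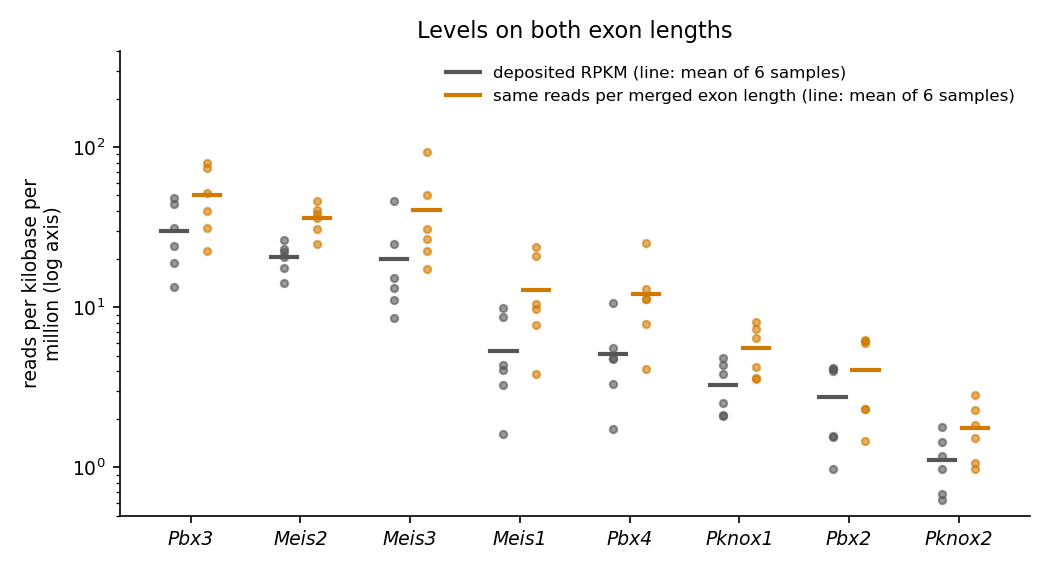
Levels of the 8 genes in the 6 samples (points; lines are means) as deposited RPKM and as the same reads per merged exon length (log axis). Every gene lies higher per merged exon length, Meis1 by 2.39 times and Pbx2 by 1.49 times, and the means of Meis2 and Meis3 exchange places through 1 sample, in which Meis3 reaches 93.7.

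Dbx1 and non-Dbx1 neurons were then compared for each gene, to ask whether these cofactors distinguish the respiratory rhythmogenic lineage from its neighbours. L2FC is the mean log2(RPKM + 1) of the Dbx1 samples minus that of the non-Dbx1 samples, tested with limma over 17614 genes with a false discovery rate (FDR) threshold of 0.1. None of the 8 genes had an FDR under 0.1, against 0.00568% of all genes tested, and their FDRs lay between 0.787 and 0.984. At an unadjusted p under 0.05 limma gave 1 of the 8, Pbx3, against 5.20% of all genes; without Dbx1 replicate 3 it gave 2, Pbx3 and Meis1. Pbx3 was also the 1 of 8 genes (12.5%) whose groups did not overlap, against 10.6% of all genes in either direction, 5.35% with Dbx1 above and 5.24% with non-Dbx1 above, so the share was close to the background. Of the 8 genes, 5 had a positive and 3 a negative L2FC, with a median of 0.32, where the median of all genes tested was 0.00892 and 50.8% were above 0.

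Pbx3 belongs to the Pbx family of direct Hox partners, and its gene lies at chr2:34171457-34373142 on the - strand. It measured 48.0, 44.1 and 31.1 RPKM in Dbx1 replicates 1 to 3 and 18.8, 13.4 and 24.0 RPKM in non-Dbx1 replicates 1 to 3. Every Dbx1 sample lay above every non-Dbx1 sample, and the nearest values were those of Dbx1 replicate 3 and non-Dbx1 replicate 3. The means were 41.1 ± 8.85 RPKM and 18.7 ± 5.28 RPKM (SD, n = 3 each), a ratio of 2.19. The L2FC was 1.10 (SE 0.303, 95% interval 0.41 to 1.80), with p = 0.00599 and FDR = 0.787 by limma and an exact permutation p of 0.10, the smallest that 3 samples against 3 allow. By p, Pbx3 ranked 132 among the 17614 genes. The paper's own test, on read counts of the same samples, called Pbx3 higher in Dbx1 neurons at an FDR threshold of 0.1, which limma did not.

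Several of the cell markers above had their highest values in non-Dbx1 replicate 1 (Mbp 155 RPKM) and non-Dbx1 replicate 2 (Cldn5, of endothelial tight junctions, 63.7 RPKM). Others were highest in non-Dbx1 replicate 3, among them the motor neuron marker Slc18a3 (37.0 RPKM) and the astrocyte markers Aqp4 (16.4 RPKM) and Slc1a3 (11.5 RPKM). The other astrocyte markers peaked elsewhere. Aldh1l1 (14.4 RPKM) and Gja1 (17.8 RPKM) were highest in non-Dbx1 replicate 1, and Gfap (3.96 RPKM) and Slc1a2 (10.4 RPKM) in Dbx1 replicate 3. Without non-Dbx1 replicate 1 the L2FC of Pbx3 was 1.13, without non-Dbx1 replicate 2 it was 0.90, and without non-Dbx1 replicate 3 it was 1.29. Mbp and 4 of the 5 erythroid markers did not overlap between the groups, whereas Alas2, the other erythroid marker, and each of the 6 endothelial and pericyte markers did. Among the astrocyte markers, Gfap did not overlap with Dbx1 above, and Slc1a3 did not overlap with non-Dbx1 above. Whether these transcripts have a part in the Pbx3 values was not tested.

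Pbx4, at chr8:69832491-69872292 on the + strand, measured 10.6, 4.80 and 4.78 RPKM in Dbx1 neurons against 1.74, 3.33 and 5.55 RPKM in non-Dbx1 neurons. Dbx1 replicate 1 was the highest, and the other Dbx1 samples lay below non-Dbx1 replicate 3, so the groups overlapped. The L2FC was 0.77 (SE 0.546, 95% interval -0.47 to 2.02; limma FDR = 0.939). Pbx2, at chr17:34591266-34597400 on the + strand, measured 1.56, 4.14 and 1.57 RPKM in Dbx1 neurons against 4.03, 4.19 and 0.979 RPKM in non-Dbx1 neurons. Its values fell near 4 RPKM in 3 samples and near or below 1.57 RPKM in the other 3, and both levels occurred in both groups. The L2FC was -0.20 (SE 0.64, 95% interval -1.67 to 1.26; limma FDR = 0.984), and leaving out non-Dbx1 replicate 1 gave 0.01 and leaving out non-Dbx1 replicate 2 gave 0.03. Of its merged exon sequence, 6.24% overlaps Gpsm3, and reads within those bases could not be assigned to 1 of the genes.

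Among the Meis genes, Meis1, at chr11:18879817-19018985 on the - strand, measured 8.76, 9.92 and 4.08 RPKM in Dbx1 neurons against 3.27, 1.61 and 4.39 RPKM in non-Dbx1 neurons. Dbx1 replicates 1 and 2 lay above all non-Dbx1 samples, whereas Dbx1 replicate 3 lay below non-Dbx1 replicate 3. The means were 7.58 ± 3.09 RPKM and 3.09 ± 1.40 RPKM (SD, n = 3 each), a ratio of 2.45. The L2FC of 1.06 (SE 0.53, 95% interval -0.16 to 2.27) was close to that of Pbx3 in size but had a wider interval, with p = 0.0795 and FDR = 0.913 by limma and an exact permutation p of 0.20. Meis1 shares 18.3% of its merged exon sequence with overlapping non-coding genes, so its counts are less certain than those of Pbx3, whose exons overlap no other gene.

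Meis2, at chr2:115863064-116065839 on the - strand, was the steadiest of the 8 genes, with 22.0, 26.2 and 20.7 RPKM in Dbx1 neurons against 23.0, 14.2 and 17.6 RPKM in non-Dbx1 neurons. Its highest sample was 1.84 times its lowest, the narrowest range of the 8, and its groups overlapped. The L2FC was 0.33 (SE 0.282, 95% interval -0.31 to 0.98; limma FDR = 0.949), an interval that leaves room for a difference in either direction. Meis3, at chr7:16175090-16186504 on the + strand, measured 13.2, 25.0 and 11.1 RPKM in Dbx1 neurons against 8.61, 46.3 and 15.2 RPKM in non-Dbx1 neurons. Non-Dbx1 replicate 2 was the highest and non-Dbx1 replicate 1 the lowest of all 6, so the whole range of Meis3 lay within the non-Dbx1 group. Its standard deviation within groups on the log2 scale was 0.925, above that of 91.9% of 1670 genes of like level. The L2FC was -0.24 (SE 0.579, 95% interval -1.56 to 1.08; limma FDR = 0.98), and without non-Dbx1 replicate 2 it was 0.40.

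The Pknox genes were the lowest of the 3 families in their summed level. Pknox1, at chr17:31564734-31607693 on the + strand, measured 4.80, 3.84 and 2.51 RPKM in Dbx1 neurons against 4.36, 2.14 and 2.10 RPKM in non-Dbx1 neurons. Replicate 1 was the highest in each group, and the groups overlapped (L2FC 0.31, SE 0.54, 95% interval -0.93 to 1.54; limma FDR = 0.970). Pknox2, at chr9:36890982-37147407 on the - strand, measured 0.622, 1.18 and 0.977 RPKM in Dbx1 neurons against 0.679, 1.80 and 1.45 RPKM in non-Dbx1 neurons. Its groups overlapped as well (L2FC -0.24, SE 0.449, 95% interval -1.27 to 0.79; limma FDR = 0.972). On log2(RPKM + 1), 6.62% of 4519 genes of like level had a lower spread within groups than Pknox2. These genes were matched on their mean on that scale and not on reads or length. The highest RPKM of Pknox2 was 2.89 times its lowest.

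**Figure D3:**
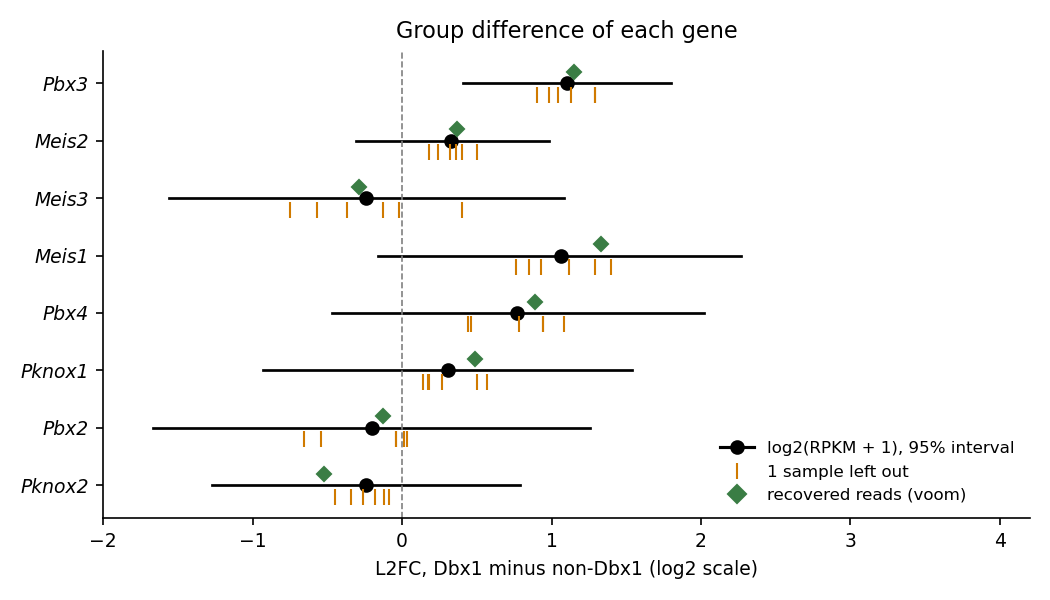
L2FC of each gene, Dbx1 minus non-Dbx1 (log2 scale), with its 95% interval from limma (black), the values with 1 sample left out (orange) and the value from recovered reads (green). The interval of Pbx3 lies above 0, from 0.41 to 1.80, and those of the other 7 genes include 0.

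Summed by family, the 3 Pbx genes gave 60.2, 53.1 and 37.5 RPKM in Dbx1 neurons against 24.6, 20.9 and 30.5 RPKM in non-Dbx1 neurons, groups that did not overlap. The 3 Meis genes gave 44, 61.1 and 35.9 RPKM and 34.8, 62.2 and 37.2 RPKM, respectively, with means of 47.0 ± 12.9 and 44.7 ± 15.2 RPKM (SD, n = 3 each). The 2 Pknox genes gave between 3.48 and 5.43 RPKM in the 6 samples. Pbx3 was the largest part of the Pbx sum in all 6 samples, and the Meis sums spanned nearly the same range in both.

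The mixture of cofactors differed from sample to sample. Pbx3 made up 43.8%, 37.0% and 40.5% of the summed RPKM of the 8 genes in Dbx1 neurons against 29.2%, 15.4% and 33.6% in non-Dbx1 neurons. Pbx3 was the highest of the 8 in all 3 Dbx1 samples and in non-Dbx1 replicate 3, Meis2 was the highest in non-Dbx1 replicate 1, and Meis3 in non-Dbx1 replicate 2. The ratio of the Meis sum to the Pbx sum was 0.730, 1.15 and 0.959 in Dbx1 neurons against 1.42, 2.97 and 1.22 in non-Dbx1 neurons. These ratios did not overlap as deposited. Per merged exon length they were 0.801, 1.32 and 1.05 against 1.58, 3.35 and 1.32, so the highest Dbx1 and the lowest non-Dbx1 ratio were equal as rounded. The ratio of Pbx3 to Meis2 compares 2 well-read genes within a sample and needs no scaling between samples. It was 2.19, 1.68 and 1.50 in Dbx1 neurons against 0.820, 0.943 and 1.36 in non-Dbx1 neurons, a difference of 0.80 on the log2 scale (exact permutation p = 0.10, the smallest possible). This ratio was chosen after its values were seen.

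**Figure D4:**
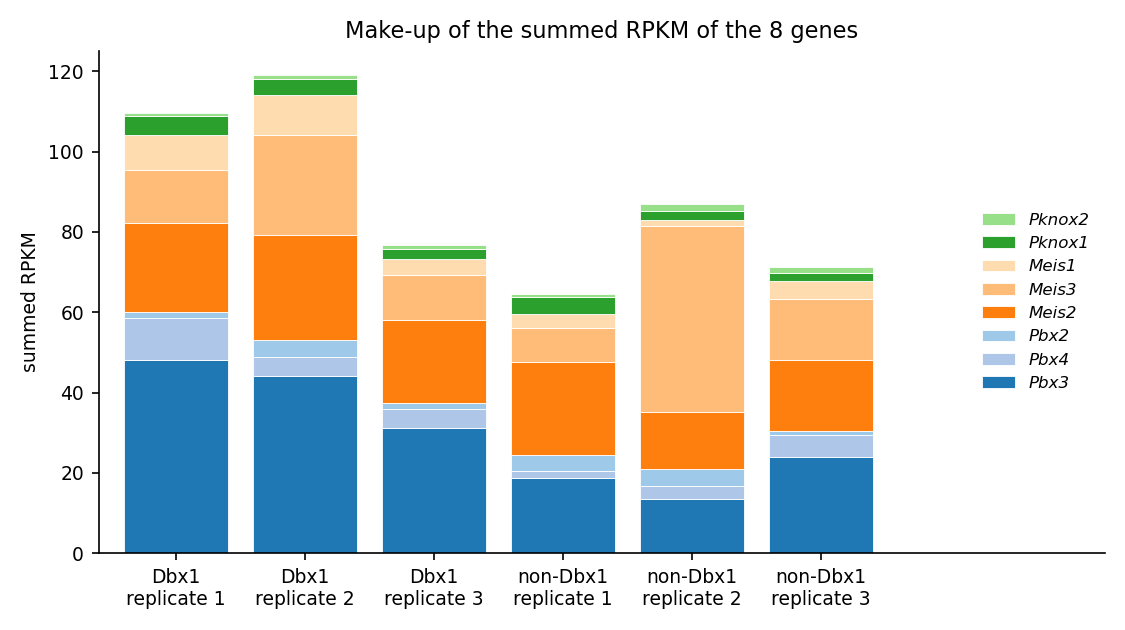
Summed RPKM of the 8 genes in each sample, stacked by gene (blue Pbx, orange Meis, green Pknox). Pbx3 takes between 37.0% and 43.8% of the sum in Dbx1 samples and between 15.4% and 33.6% in non-Dbx1 samples, and Meis3 takes most of the sum in non-Dbx1 replicate 2.

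The genes whose pattern over the 6 samples was most like that of Pbx3, by the root mean square difference of centred log2(RPKM + 1) among 4424 genes with a mean of at least 10 RPKM, were RP23-385N1.1 (0.198), Dab1 (0.210) and Cab39l (0.215), where the median gene was at 0.737. Dab1, an adaptor of reelin signalling in neuronal migration, measured 38.1, 35.4 and 34.7 RPKM in Dbx1 neurons against 20.5, 10.3 and 20.3 RPKM in non-Dbx1 neurons. Those most like Meis2 were Ubl5 (0.0688), Gm11539 (0.0879) and Tm2d3 (0.107), against a median of 0.505, and those most like Pknox1 were Abcf1 (0.121), Kat7 (0.136) and Rabggta (0.139), against a median of 0.553. With 6 samples and this many candidates, close patterns are a description only.

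The Hox genes with which these cofactors bind were present in part. Of 15 Hox genes of paralogue groups 1 to 5, which pattern the hindbrain and upper cervical cord, 11 were tested, none had an FDR under 0.1 by limma, and 2 had p under 0.05, both higher in Dbx1, against 2.73% of all genes in that direction. The L2FC was above 0 for 5 and below 0 for 6 (median -0.03). Hoxa4 was the highest of them, with 66.3, 44.2 and 23.5 RPKM in Dbx1 neurons against 19.6, 12.7 and 11.3 RPKM in non-Dbx1 neurons, and its groups did not overlap, as for Pbx3 (L2FC 1.47, SE 0.403; limma FDR = 0.787). Hoxc5 had the highest L2FC, 1.51 (limma FDR = 0.912), and Hoxb5 the lowest, -0.29 (limma FDR = 0.986). Of the 11 genes, 2 did not overlap, Hoxa4 and Hoxc5, both with Dbx1 above, against 5.35% of all genes in that direction. Of 24 Hox genes of groups 6 to 13, which pattern the body further towards the tail, 13 had no reads, and none of the other 11 had reads in 3 samples. Hoxa9, the highest of them, was at 0.215 RPKM in Dbx1 replicate 2, 0.376 RPKM in non-Dbx1 replicate 1 and 0 elsewhere.

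Among 9 other TALE homeobox genes, of the Irx, Tgif and Mkx families, 6 were tested, none had an FDR or p under its threshold by limma, and the L2FC was above 0 for 5 (median 0.42). Irx4 was the highest, at 8.33, 10.2 and 26.2 RPKM in Dbx1 neurons against 20.8, 4.52 and 2.84 RPKM in non-Dbx1 neurons, so that only Pbx3, Meis2 and Meis3 had a higher mean in the TALE genes described here. Irx5 had the highest L2FC (1.0, limma FDR = 0.924) and Irx1 the lowest (-0.84, limma FDR = 0.924). Of 9 regulators that bind Pbx or Meis proteins, modify chromatin with them or move them out of the nucleus, all 9 were tested, none passed either threshold by limma, and 3 had an L2FC above 0 (median -0.04). The highest was Hdac3, a histone deacetylase, with 34.6 ± 13.1 RPKM in Dbx1 and 33.8 ± 2.78 RPKM in non-Dbx1 samples (SD, n = 3 each). The corepressor Ncor1 had the highest L2FC, 0.36 (limma FDR = 0.952), and Pbxip1, whose product binds Pbx proteins and hinders their binding to DNA, the lowest, -0.59 (limma FDR = 0.960).

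Retinoic acid induces Hox and Meis genes in the developing hindbrain. Of 16 genes for its synthesis, binding, breakdown and receptors, 13 were tested, none had an FDR under 0.1, and 1 in each direction had p under 0.05 by limma, against 2.73% of all genes with Dbx1 higher and 2.48% with non-Dbx1 higher. The binding protein gene Crabp1 was the highest, with 452, 239 and 437 RPKM in Dbx1 neurons against 956, 776 and 545 RPKM in non-Dbx1 neurons, groups that did not overlap (L2FC -1.03, SE 0.343; limma FDR = 0.874). The retinoid receptor gene Rxrg had the highest L2FC (1.93, limma FDR = 0.870), and Aldh1a1, for a retinoic acid-synthesising enzyme, the lowest (-1.10, limma FDR = 0.951). Of the 13 genes, 2 did not overlap with Dbx1 above, Rxrg among them, and 1, Crabp1, with non-Dbx1 above. The shares of all genes were 5.35% and 5.24%. Cyp26a1, for an enzyme that breaks retinoic acid down, had no reads in any sample. The median L2FC of the 13 genes was -0.16, beside 0.32 for the 8 cofactor genes.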

How the data were processed

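The authors made cDNA with SMART-Seq v4, which includes PCR, sequenced Nextera libraries with single-end reads, aligned the reads to mm10 with TopHat2, counted them per gene name without strand with HTSeq, and deposited RPKM with exon lengths from an Ensembl annotation. Versions are not given in the sources used here. Reads per gene were recovered from the steps between deposited values, as the lowest whole numbers these allow, and they accounted for between 97.47% and 98.48% of the reads of a sample. The floor of 3 reads covers counting error only, whereas the 95% intervals are from limma and rest on the spread between samples.

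The study's test on counts was replaced by limma 3.58.1 in R 4.3.3 (lmFit, eBayes with a mean-variance trend, two-sided) on log2(RPKM + 1), over the 17614 genes that were above 0 RPKM in 3 samples or more. A fold change on this scale understates the change of low genes. P-values measure the spread between samples, each from a separate mouse. The limma script was tested on simulated data. Of the gene names, 95.3% matched GENCODE vM21 on GRCm38. Python 3.11.15 with numpy 2.4.6, pandas 2.3.3, scipy 1.17.1 and matplotlib 3.10.9 was used for the rest.

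The 8 genes and the lists around them were chosen with earlier results of these data known. Genes named from a list are its highest by mean RPKM and those with the highest and lowest L2FC. The genes most like a cofactor gene are the 3 closest to Pbx3, Meis2 and Pknox1. Alternatives were a pseudocount of 0.1, other filters (above 0 RPKM in 1 sample or more, 1 RPKM or more in 3 samples), size factors, quantile normalization, no trend, a replicate block and each sample left out. Added after seeing the data were voom on recovered reads (at least 10 in at least 3 samples), merged exon length and the ratio of Pbx3 to Meis2. The family sums, the shares of the summed RPKM and the ratio of the Meis sum to the Pbx sum were not planned beforehand either. The same holds for the upper group of Pbx3, Meis2 and Meis3, which was picked from the means. The summed oligodendrocyte lineage markers are not reported here.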

Additional observations from a re-analysis of the deposited data

How the results depend on the processing

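Under 14 alternatives of the limma comparison, the count of cofactor genes with an FDR under 0.1 stayed at 0, as did that of the genes in the lists around them. The count with p under 0.05 was 1 (Pbx3), and 2 (Pbx3 and Meis1) without the trend, with voom on recovered reads, which was chosen after seeing the data, and without Dbx1 replicate 3, with a range of 1 to 2 when samples were left out. The L2FC of Pbx3 was between 0.90 and 1.29 (FDR 0.606 to 0.999), that of Meis1 between 0.76 and 1.40, Pbx4 between 0.44 and 1.08, Meis2 between 0.18 and 0.50, Pknox1 between 0.14 and 0.57 and Pknox2 between -0.52 and -0.09. That of Pbx2, between -0.66 and 0.03, changed sign without non-Dbx1 replicate 1 (0.01) and without non-Dbx1 replicate 2 (0.03), and that of Meis3, between -0.75 and 0.40, without non-Dbx1 replicate 2 (0.40). The level difference of Meis1 and Pbx4 lay between -0.16 and 0.17 and changed sign without Dbx1 replicate 2 (-0.16) and on leaving out non-Dbx1 replicate 1 (-0.11). The count of neighbouring pairs with 1 direction in every sample was 1, and between 1 and 2 when a sample was left out. The cause of these shifts was not tested.

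Over all genes, 1 gene was higher in non-Dbx1 at an FDR under 0.1; the count was 0 with a pseudocount of 0.1, 0 with RPKM above 0 in at least 1 sample, 3 without the trend, 0 with voom and between 0 and 1 with samples left out. The count higher in Dbx1 was 0, and between 0 and 1 with samples left out, the 1 without non-Dbx1 replicate 2. With the replicate number as a block it was 0 in both directions, no cofactor gene passed, and the L2FC of Pbx3 was 1.10 (limma FDR 0.98). The numbers did not pair the samples: the correlations of deviations between same-numbered samples were -0.107, 0.0248 and -0.0522. With 3 samples a group, the 95% intervals of Pbx4, Pbx2, Meis1, Meis3, Pknox1 and Pknox2 were over 2 log2 units wide.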
